A study of Mus musculus with 8 samples.

Results

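The genes described here are the dopamine receptor genes and the genes of the signalling chain that follows the D1 receptor, as measured in single cells of the mouse frontal isocortex at postnatal day 7. The 8 genes are Drd, Drd2, Drd4, Drd5, Gnal, Adcy5, Ppp1r1b and Pde10a, and they were chosen by name. The table of the D1Tom sort lists all 8 among its 17836 genes, and the table of the GTE sort lists 7 among its 15769 genes; Drd4 was therefore analysed in the D1Tom sort alone. Both tables spell the D1 receptor row as Drd, which was taken for Drd1 and is called Drd below.

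The cells were sorted for one of a pair of fluorescent reporters. D1Tom cells carried the Drd1a-tdTomato BAC transgene (line 6), which puts the red protein under D1 receptor regulatory sequence, and GTE cells carried golli-τ-eGFP. The controls were Foxp2 flox/flox mice and the conditional knockouts (cKO) were Emx1-Cre; Foxp2 flox/flox littermates, so every mouse, controls included, carried 2 floxed Foxp2 alleles. Emx1-Cre acts in the cortical lineage that gives excitatory neurons and glia and not in cortical interneurons, which come from elsewhere. The line was backcrossed to C57BL/6J. By the labels D1Tom cKO 2 and the GTE libraries other than cKO 2 were male and the rest female. For GTE the protocol text contradicts these sexes, and the GTE batches were treated as unknown. Each sort has 2 control and 2 cKO libraries, 8 in all, numbered 1 and 2 within a group; the labels give the D1Tom libraries of 1 number as prepared together, and do not say how many animals a library holds. P-values below therefore measure only the spread between these libraries, which may be technical. The comparison of cKO with control asks whether cortical loss of Foxp2 changes the expression of dopamine receptor genes.

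Dopamine receptors form a D1 class, Drd1 and Drd5, and a D2 class, which includes Drd2 and Drd4. D1 class receptors raise cyclic AMP: in the striatum they couple to the G protein alpha subunit encoded by Gnal and to adenylyl cyclase type 5, encoded by Adcy5. Cyclic AMP activates protein kinase A, which phosphorylates DARPP-32, the product of Ppp1r1b, turning it into an inhibitor of protein phosphatase 1, while Pde10a encodes a phosphodiesterase that breaks cyclic nucleotides down. In the cortex the D1 receptor is best known from deep layer pyramidal neurons, where DARPP-32 is also found.

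The sequence before the Drd1 gene is shown because Drd is the gene the results below turn on, and because it is the locus whose regulatory sequence drives the sorting reporter. Drd1 lies on the minus strand at chr13:54051183-54055658 of GRCm38.p6, the build that the submitters' processing notes name, and RefSeq windows exist for a pair of start sites. The first window, chr13:54055706-54055908, gives 203 bases upstream of the first exon, with 47 bases next to the start left out because they overlap an annotated exon. The second window, chr13:54054781-54055030, gives the 250 bases before the second start and lies between exons 1 and 2. Both are written 5′ to 3′ on the minus strand, and capitals mark GGGCGG, the core of the motif known from Sp1 family factors.

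Drd1 window 1: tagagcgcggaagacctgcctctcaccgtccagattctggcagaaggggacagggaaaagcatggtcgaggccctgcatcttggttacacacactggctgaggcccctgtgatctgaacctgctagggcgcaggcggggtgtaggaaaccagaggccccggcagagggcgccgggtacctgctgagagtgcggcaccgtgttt
Drd1 window 2: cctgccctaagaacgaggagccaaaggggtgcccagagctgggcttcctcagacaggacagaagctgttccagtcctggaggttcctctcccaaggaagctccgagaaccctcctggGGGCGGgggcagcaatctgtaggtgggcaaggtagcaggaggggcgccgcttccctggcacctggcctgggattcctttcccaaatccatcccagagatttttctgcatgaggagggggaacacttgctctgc

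The motifs searched on both strands were GGGCGG, the forkhead motif TGTTTAC, the cyclic AMP response element TGACGTCA and TATAAA; none overlaps another in these windows. GGGCGG sits 133 bases before the second start, and 32.7% of 32851 mouse windows of 250 bases hold it. TGTTTAC (in 3.17% of all windows), TGACGTCA (1.55%) and TATAAA (12.4%) were not found in these windows. Windows exist for 6 of the 8 genes, 8 windows in all; 6 of the 8 windows hold GGGCGG and 0 hold any of the other motifs. The other genes whose position is given lie at chr9:49340360-49408177 (Drd2), chr7:141291974-141296464 (Drd4), chr5:38319509-38322523 (Drd5), chr11:98348406-98357796 (Ppp1r1b), chr16:35154494-35305743 (Adcy5) and chr17:8525187-8986648 (Pde10a), all on the plus strand of GRCm38.p6.

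The D1Tom libraries held 2395 to 3206 cells and 27323298 to 36379194 counts, and the GTE libraries 1440 to 3948 cells and 4878370 to 6092396 counts, so the D1Tom sort carries most of the evidence below; the labels state a target of 1000 cells per sample. Foxp2, the deleted gene, stood at 36.3 and 39.1 CPM (counts of a gene per 1000000 counts of the library or type) in D1Tom control libraries 1 and 2 and at 26.5 and 19.4 CPM in cKO libraries 1 and 2, a fitted log2 difference of -0.67 ± 0.16 (SE), at an unadjusted p = 0.0072 and an adjusted p = 0.998 in edgeR's quasi-likelihood test. In GTE it stood at 9.52, 46.9, 25.4 and 7.43 CPM in the same order, so the GTE groups overlapped. The summed level of 13 markers of striatal projection neurons, which also express most of the 8 genes, was 96.2, 107, 84.7 and 77.6 CPM in the D1Tom libraries; 0 to 2 of the 13 were at 0, Isl1 among them in control 1 and cKO 1, and their part in the results was not tested. Deposited counts may not be plain single molecules in all libraries, which was not tested. Over all genes, the ratio of values of 2 to values of 1 was 1.69, 0.723, 1.54 and 0.307 in D1Tom control 1, control 2, cKO 1 and cKO 2. Barcodes shared between libraries of a sort numbered 4 to 27 per pair. Cell types were rebuilt from marker genes with the 8 genes left out of the clustering, and a group without a clear name is called by its cluster number.

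Drd, the D1 receptor, was lower in both D1Tom cKO libraries than in both control libraries. D1Tom cells were sorted on a reporter under D1 receptor regulatory sequence. Drd levels in this sort, between genotypes and between types, therefore apply to cells that passed that gate, and the part of the gate was not tested. Drd stood at 65.5 and 64.4 CPM in control libraries 1 and 2 and at 27.3 and 21.0 CPM in cKO libraries 1 and 2. The control libraries were almost level, and the cKO mean of 24.2 ± 4.42 CPM (SD, n = 2) was 37.2% of the control mean of 65.0 ± 0.728 CPM (SD, n = 2). Within the libraries prepared together the cKO level was 0.417 times (number 1) and 0.327 times (number 2) the control level. On the log2 scale the fitted difference was -1.37 ± 0.14 (SE), at an unadjusted p = 9.4e-05 and an adjusted p = 0.765 in edgeR's quasi-likelihood test, so the difference exceeded the spread between libraries but did not pass the correction over 14508 genes. DESeq2 gave -1.37 with an adjusted p = 1.6e-08, and the adjusted p ranged from 1.6e-08 to 1.00 over 12 alternatives, 1 of which passed.

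Ppp1r1b (DARPP-32) was the other gene of the 8 with an unadjusted p under 0.05 that was lower in both D1Tom cKO libraries, and Drd2 was lower in both at a very low level. Of the 8 genes, 3 were lower in both cKO libraries than in both controls, against 13.7% of all genes tested, and 0 were higher in both, against 9.7%. Of the 7 that passed the filter on low counts, 0 passed the corrected test, as did 0% of the 14508 genes, while 2, Drd and Ppp1r1b, had an unadjusted p under 0.05 in edgeR, against 2.21% of all genes. DESeq2 called 24 genes, Drd among them. Drd4 did not pass the filter.

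**Figure D1:**
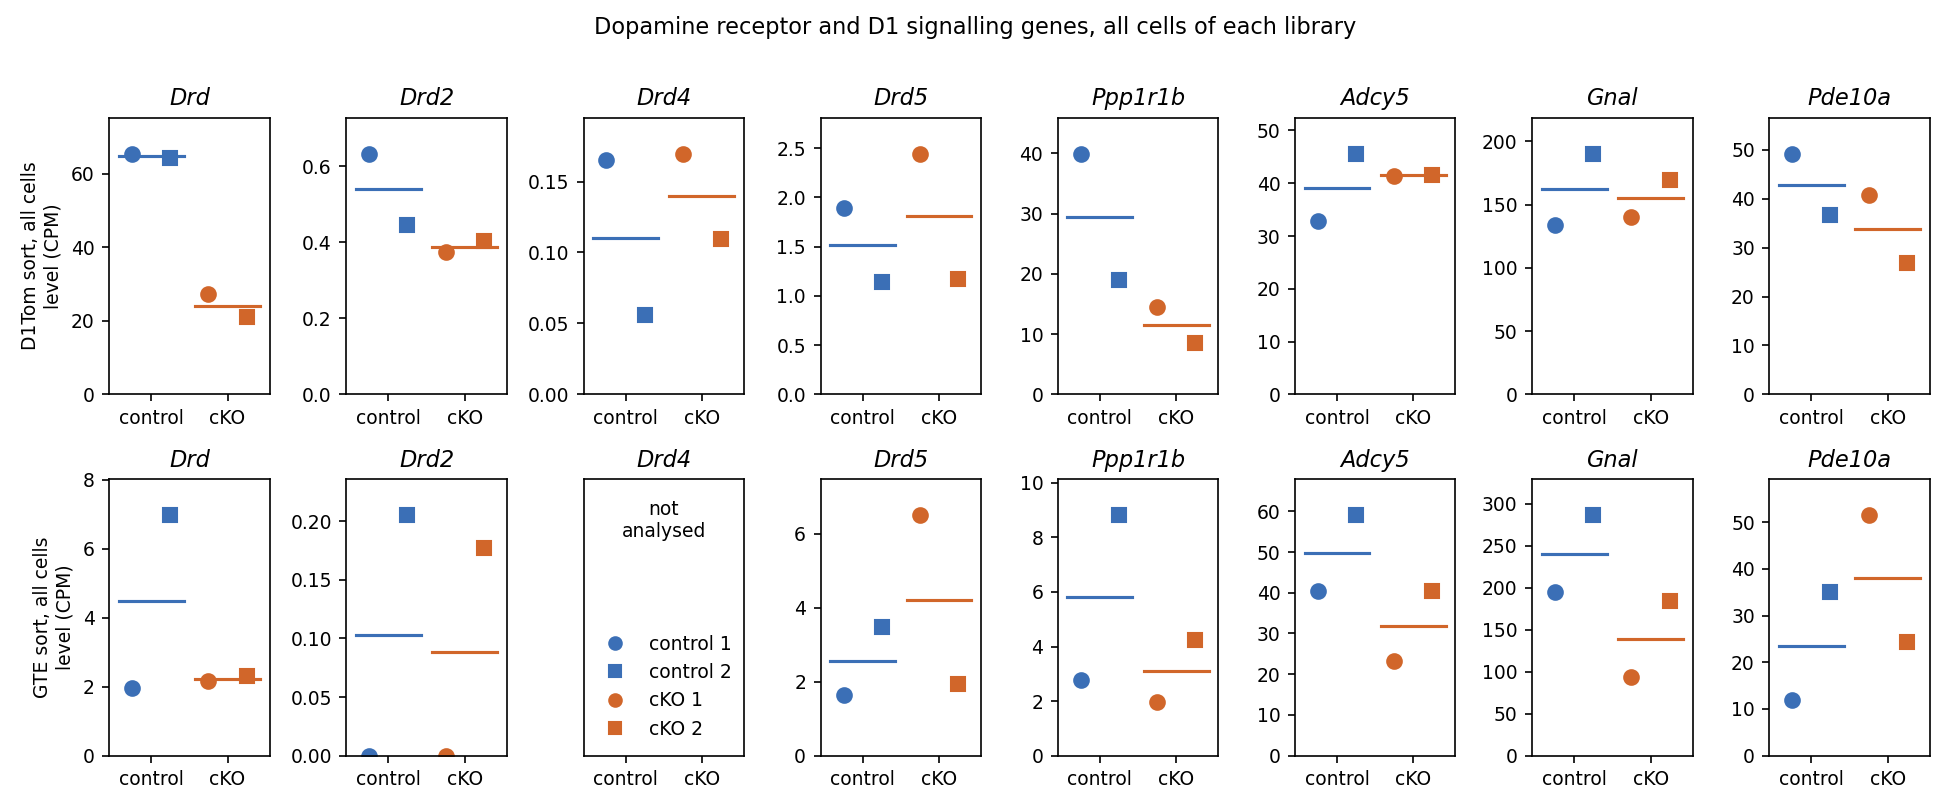
Level of each gene in CPM (vertical axis, linear, from 0, own scale per panel) summed over all cells of each library, with the D1Tom sort above and the GTE sort below; points are libraries, circles number 1 and squares number 2, and lines are means of the 2 libraries. The D1Tom cKO points for Drd, at 27.3 and 21.0 CPM, lie far below the control points at 65.5 and 64.4 CPM, while those for Adcy5, Gnal and Pde10a overlap the controls.

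Fewer cells of a type and less RNA per cell cannot be told apart in a sum over all cells, and the D1Tom libraries differed in their makeup. Cells named for a neuron type made up 27.4% and 30.5% of control libraries 1 and 2 and 22.6% and 12.1% of cKO libraries 1 and 2. With the 16 types of sufficient cell number given the same share in every library, the log2 difference of Drd moved from -1.34 to -1.13, and that of Ppp1r1b from -1.28 to -0.72; this calculation has no test. Over cells named for a neuron type alone the log2 fold change was -0.83 for Drd and -1.07 for Ppp1r1b. With each count above 0 set to 1, which removes differences in the size of the counts, Drd stood at -0.99.

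In control D1Tom cells Drd was most abundant in deep layer neurons. Layer 6b or subplate-like cells held 312 and 270 CPM in control libraries 1 and 2, and layer 6 corticothalamic-like cells 277 and 264 CPM; their ranges overlapped. Below them came cluster 27, led by Trhr and Tshz2, at 188 and 164 CPM. Layer 5 pyramidal tract-like cells held 99.5 and 93.3 CPM, a range overlapped by cluster 8 (led by Il1rapl2 and Slc18a2) above and by cluster 11 (led by Met and Lpl) below. Cluster 25 (led by Cyp26b1 and Sstr2) came next at 73.8 and 74.1 CPM, then cluster 15 at 50.3 and 39.7 CPM. Interneuron-like cells held 40.4 and 44.9 CPM, within the range of cluster 15. Upper layer-like cells held 19.9 and 38.5 CPM, astrocyte-like cells 11.7 and 29.3 CPM, and radial progenitor-like cells a mean of 13.8 CPM; from upper layer-like cells down, each range overlapped the next. The mean of layer 6b or subplate-like cells was 21.1 times that of radial progenitor-like cells. Cluster 24, led by Oprk1 and with only 12 cells in cKO 2, held 212 and 187 CPM in the controls.

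The deep layer types were few in number but gave a large part of the Drd counts. Of the 4700 Drd counts in D1Tom control cells, layer 6b or subplate-like cells gave 13.8%, layer 6 corticothalamic-like cells 13.3%, cluster 24 gave 11.7%, cluster 11 gave 9.45% and layer 5 pyramidal tract-like cells 7.87%. Upper layer-like cells gave 5.51% and interneuron-like cells 5.43%.

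Drd was lower in cKO across excitatory deep layer types. In layer 6b or subplate-like cells it stood at 128 and 129 CPM in cKO libraries 1 and 2, 44.3% of the control mean (log2 -1.18 ± 0.23 SE, edgeR unadjusted p = 1.6e-04, adjusted p = 0.742). In layer 6 corticothalamic-like cells, where Foxp2 stood at 354 and 333 CPM in controls against 128 and 141 CPM in cKO, Drd stood at 170 and 97.8 CPM (log2 -0.97 ± 0.27, edgeR unadjusted p = 0.0015, adjusted p = 0.622). In layer 5 pyramidal tract-like cells it stood at 41.5 and 34.3 CPM (log2 -1.35 ± 0.21, edgeR unadjusted p = 5.9e-05, adjusted p = 0.304). In all 3 types both cKO libraries were below both controls. A block on the replicate number leaves 1 residual degree of freedom in place of 2. With it the adjusted p in edgeR was 0.0020, 0.015 and 0.0022 for Drd in these types in the same order. The block called 18 of 9132, 22 of 7276 and 16 of 10284 genes in them, against 0, 4 and 0 without it. In DESeq2 Drd did not pass in layer 6b or subplate-like cells (adjusted p = 0.99967) or layer 6 corticothalamic-like cells (adjusted p = 0.999961). In layer 5 pyramidal tract-like cells Drd passed in 4 of 7 alternatives, with no filter among them (adjusted p = 5.5e-05 in edgeR).

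Different clusters held most of the layer 6 corticothalamic-like cells in the 2 groups, which applies to the Foxp2, Drd and Ppp1r1b values of that type. Cluster 33, led by Ppp1r1b, Syt6 and Foxp2 and with a median of 17286 counts per cell, held 90 and 28 of these cells in control libraries 1 and 2 but 14 and 11 in cKO libraries 1 and 2. Cluster 31, with a median of 2712.5 counts, held 70 and 9 in controls against 54 and 15 in cKO. Drd stood at 280 and 276 CPM in controls against 157 and 68.0 CPM in cKO within cluster 33, where the groups did not overlap. Within cluster 31 it stood at 255 and 179 CPM against 197 and 216 CPM, and the groups overlapped. Ppp1r1b stood at 478 and 315 CPM against 270 and 129 CPM in cluster 33, and at 62.6 and 244 CPM against 54.4 and 81.0 CPM in cluster 31. The layer 5 pyramidal tract-like cells also had a pair of clusters of unequal depth. Cluster 21, with a median of 28743 counts, held 37 and 80 cells in controls against 36 and 40 in cKO, and Drd there was 98.3 and 95.9 CPM against 45.3 and 35.3 CPM. Cluster 45, with a median of 4165 counts, held 12 and 12 cells against 43 and 18, and Drd there came from 14, 1, 3 and 1 counts. These values within clusters have no test.

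Cluster 11 was the single type in which Drd passed the corrected test. It held 75.0 and 102 CPM in controls against 7.29 and 28.0 CPM in cKO, from 49, 395, 5 and 36 counts. The fitted log2 difference was -2.20 ± 0.39 (SE), at an adjusted p = 0.010 in edgeR, where 2 of 9697 genes passed (0.0206%). Of the other 15 types, layer 6 corticothalamic-like cells (0.055% of genes called), radial progenitor-like cells (0.264%), clusters 15 (0.0168%) and 25 (0.0103%) and upper layer-like cells (0.00907%) had any gene called, and the rest 0%. The call was lost in DESeq2 (adjusted p = 0.458) and without cKO 1, which had 30 such cells (log2 -1.62, adjusted p = 0.147 in edgeR). In cluster 25 Drd stood at 73.8 and 74.1 CPM in controls and 30.4 and 20.3 CPM in cKO (edgeR adjusted p = 0.206, and 1.3e-05 with the replicate block and 7.3e-05 with no filter, 2 of 7 alternatives). In cluster 27 it stood at 106 and 69.4 CPM in cKO (adjusted p = 0.049 in edgeR with the replicate block, 1 of 3 fits passing). The block called 21 of 9697 genes in cluster 25 and 10 of 8241 in cluster 27, against 1 and 0 without it.

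Over the 16 D1Tom types with at least 20 cells in each library, the fitted log2 fold change of Drd was below 0 in 16 and ranged from -2.20 to -0.07, with a median of -1.23. Both cKO libraries were below both controls in 13 of 16 types, against 12.5% of all genes tested in those types, with a range of 7.77% to 17.2% between types. The 11 types with at least 30 cells gave 8 such types. With 1 library left out the edgeR call for Drd changed in a few of them: layer 5 pyramidal tract-like cells passed without cKO 1 (adjusted p = 0.039) and without cKO 2 (adjusted p = 0.014), and without control 1 astrocyte-like cells (log2 -2.22, adjusted p = 0.0063) and oligodendrocyte precursor-like cells (log2 -1.93, adjusted p = 0.011) passed. The types share their libraries and so are not independent of one another. Several held little Drd, with control means of 24.1 CPM in oligodendrocyte precursor-like, 23.7 in dividing-like, 20.5 in astrocyte-like and 13.8 in radial progenitor-like cells. Endothelial-like control cells, which should lack the gene, also held Drd counts (27 in 160 cells). Whether RNA was carried over between cells was not tested.

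Interneuron-like cells showed little difference in Drd. They held 40.4 and 44.9 CPM in controls against 42.6 and 39.1 CPM in cKO, means of 42.6 ± 3.17 and 40.8 ± 2.52 CPM (SD, n = 2), and the groups overlapped. Their fitted log2 difference was -0.07 ± 0.21 (SE; edgeR adjusted p = 1.00). The cKO effect on Drd was more negative than in interneuron-like cells by 1.28 ± 0.28 on the log2 scale in layer 5 pyramidal tract-like cells (edgeR unadjusted p = 5.6e-04), with an unadjusted p = 0.0015 for layer 6b or subplate-like cells and an unadjusted p = 0.0041 for layer 6 corticothalamic-like cells. This comparison was added after seeing the data. Interneuron-like cells had the highest fitted value of Drd among the 16 types, which favours small unadjusted p-values, so these serve as description only. None of the 9 differences tested for Drd passed the correction over all genes, the adjusted p being at least 0.996 in edgeR; 0.0186% of genes passed in the layer 6 corticothalamic-like comparison and 0% in the others. Upper layer-like cells, with 19.9, 38.5, 21.8 and 22.5 CPM in the 2 control and 2 cKO libraries, and Cajal-Retzius-like cells also had overlapping groups. These types pool clusters of unlike makeup. Of the upper layer-like clusters, cluster 43 held 26, 66, 2 and 1 cells and cluster 50 held 27, 33, 0 and 0, in the same order. Interneuron-like clusters had median depths from 1761 counts (cluster 44) to 16563 counts (cluster 22). The part of this makeup in the overlap was not tested.

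**Figure D2:**
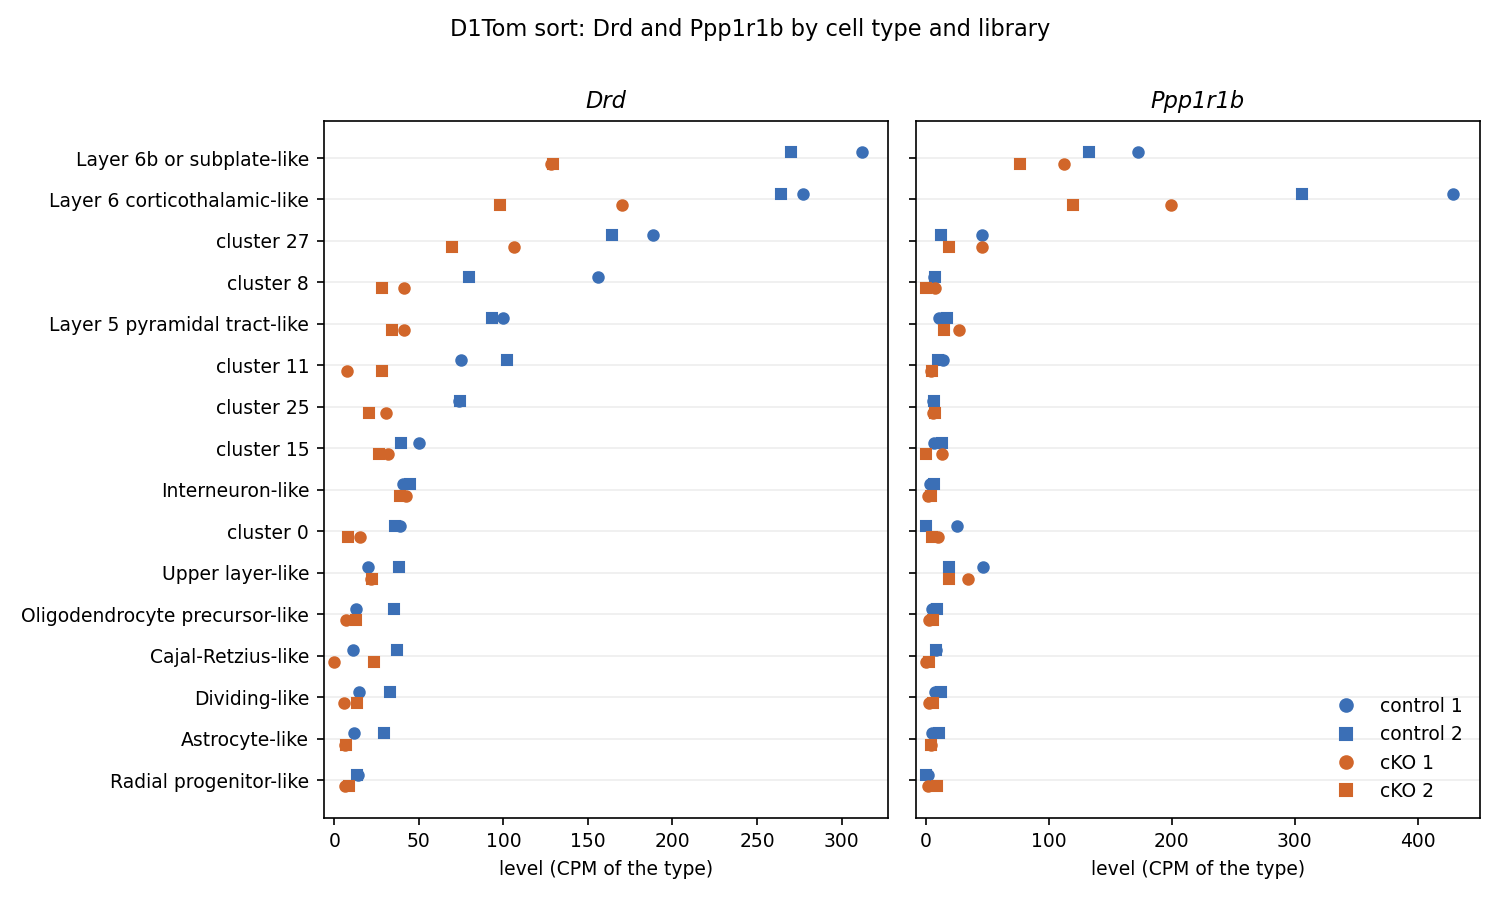
Level of Drd (left) and Ppp1r1b (right) in CPM of the type (horizontal axis, linear) in each D1Tom cell type with at least 20 cells in every library, ordered by the control mean of Drd; each point is a library, circles number 1 and squares number 2, blue control and orange cKO. Drd cKO points lie left of control points in 13 of 16 types and overlap in interneuron-like cells, and Ppp1r1b is high in layer 6 corticothalamic-like cells, at 429 and 306 CPM in the controls.

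The share of cells with a Drd count was compared at equal depth. Each cell was thinned to 1000 counts, which left out cells with fewer counts. The share over all D1Tom cells was 4.13% (132 of 3194) and 5.26% (126 of 2395) in the controls and 2.21% (62 of 2801) and 1.66% (51 of 3079) in cKO, against 21.3%, 35.9%, 11.3% and 12.6% before thinning. In control cells it was 24.0% in layer 6 corticothalamic-like cells (47 of 196; 18.2% to 30.6%, exact binomial 95% interval) and 24.0% in layer 6b or subplate-like cells (24 of 100; 16.0% to 33.6%), and 10.6% in layer 5 pyramidal tract-like cells (15 of 141). Intervals cover counting error only. Endothelial-like cells, which should lack the gene, gave 0 of 160 cells, which allows up to 1.88%. Before thinning the same 160 cells held 27 Drd counts, so they were not free of Drd. Their median depth before thinning was 22047 counts, against 8470 in astrocyte-like cells. Astrocyte-like cells gave 1.32% (13 of 985) and upper layer-like cells 1.88% (9 of 479), which cannot be told apart from the endothelial-like limit at this depth.

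In cKO cells the shares at this depth were 14.1% in layer 6 corticothalamic-like cells (13 of 92), 8.64% in layer 6b or subplate-like cells (7 of 81) and 1.46% in layer 5 pyramidal tract-like cells (2 of 137). The layer 6 corticothalamic-like cells were mostly of cluster 33 in control and of cluster 31 in cKO, and cluster 45 gave more of the layer 5 pyramidal tract-like cells in cKO than in control. Interneuron-like cells gave 3.87% in cKO (17 of 439) against 3.03% in control (15 of 495). Among cells with any Drd count before thinning, the mean count was 3.49 and 2.70 in control libraries 1 and 2 and 2.53 and 1.48 in cKO libraries 1 and 2. The same mean also fell from control 2 to cKO 2 for genes whose groups overlapped, from 3.92 to 2.35 for Gnal, 1.92 to 1.29 for Adcy5 and 1.95 to 1.28 for Pde10a, and the number 2 libraries differed in the ratio of values of 2 to values of 1 given above.

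Sfxn1, a mitochondrial serine transporter gene, is the annotated gene next to Drd1, 15997 bases away on the other strand with 0 genes between. In D1Tom cells it stood at 1450 and 1297 CPM in controls against 731 and 543 CPM in cKO (log2 -1.05 ± 0.20 SE, edgeR unadjusted p = 0.0022, adjusted p = 0.998). Its cKO libraries were below its controls in 16 of 16 D1Tom types, against 12.5% of all genes tested in those types. In interneuron-like cells it stood at 1450, 1408, 1280 and 967 CPM. It passed the corrected test in cluster 25 (edgeR adjusted p = 0.014, with 0.0103% of genes called) and layer 6 corticothalamic-like cells (edgeR adjusted p = 0.031, with 0.055% called). In GTE cells it stood at 141, 146, 222 and 152 CPM, and in the control libraries it was higher in D1Tom than in GTE by 2.55 on the log2 scale (edgeR adjusted p = 0.018). With each count above 0 set to 1 the Sfxn1 difference in D1Tom was 0.034. That setting discards the size of the counts, so it cannot show a difference in level where most cells of both groups hold a count. The share of cells with Sfxn1 was not computed. Emx1, whose locus carries the Cre, stood at 24.5, 25.9, 12.3 and 10.4 CPM. The part of either gene in the Drd result was not tested.

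Drd5, the second D1 class receptor, was found mainly in oligodendrocyte precursor-like cells, which gave 54 of its 110 control counts (49.1%). They held 13.3 and 5.56 CPM in controls against 13.8 and 4.38 CPM in cKO, from 39, 15, 35 and 11 counts. Library number separated these values and genotype did not (log2 -0.04 ± 0.58 SE). Layer 6b or subplate-like cells held 9.21, 2.87, 5.29 and 3.46 CPM. Over all D1Tom cells Drd5 stood at 1.90, 1.14, 2.44 and 1.17 CPM, and the groups overlapped. In the GTE sort, oligodendrocyte precursor-like cells again held it, at 8.36 and 22.2 CPM in controls against 19.6 and 8.18 CPM in cKO (log2 -0.26).

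Drd2 and Drd4, of the D2 class, were near the limit of detection. Drd2 had 23, 16, 11 and 11 counts in the D1Tom libraries, 0.632, 0.445, 0.373 and 0.403 CPM (log2 -0.40 ± 0.51 SE, edgeR adjusted p = 0.998). Interneuron-like cells gave 16 of its 39 control counts (41.0%), at 3.52 and 1.27 CPM in controls against 1.29 and 0 CPM in cKO. At 1000 counts per cell, 6 of 5589 control cells had Drd2 and 0 had Drd4, which allows up to 0.0537%. Drd4 had 6, 2, 5 and 3 counts in all and at most 2 in any type of any library. GTE libraries had 0, 1, 0 and 1 counts of Drd2.

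Gnal, the G protein alpha subunit that couples D1 receptors to cyclase, did not separate the D1Tom groups. It stood at 134 and 190 CPM in controls against 140 and 169 CPM in cKO, and libraries of number 2 were higher than those of number 1 in both groups. The fitted log2 difference was 0.00 ± 0.27 (SE; edgeR adjusted p = 1.00). In control cells it was present in most types: upper layer-like cells held 251 and 249 CPM, layer 6b or subplate-like cells 239 and 292 CPM, layer 5 pyramidal tract-like cells 202 and 217 CPM and layer 6 corticothalamic-like cells 145 and 206 CPM. Interneuron-like cells held less, at 93.2 and 138 CPM, and Cajal-Retzius-like cells 26.5 and 94.0 CPM.

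The cKO values of Gnal in those types overlapped the controls. Upper layer-like cells held 265 and 250 CPM, layer 6b or subplate-like cells 204 and 249 CPM, and layer 6 corticothalamic-like cells 134 and 212 CPM. Groups overlapped in 16 of 16 types, and the fitted log2 fold change ranged from -0.24 to 0.53 with a median of -0.05. Without control 2 Gnal passed in astrocyte-like (log2 1.06, adjusted p = 0.041) and dividing-like cells (log2 1.36, adjusted p = 0.021) in edgeR, where leaving out each library in turn gave -0.89 to 1.06 and -0.40 to 1.36. In astrocyte-like cells Gnal stood at 50.0, 178, 93.6 and 110 CPM, higher in the library of number 2 in both groups. At 1000 counts per cell, 22.1% of upper layer-like control cells had a Gnal count against 4.38% of endothelial-like cells (7 of 160).

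Adcy5, the cyclase, likewise had overlapping D1Tom groups, at 32.8 and 45.6 CPM in controls against 41.5 and 41.6 CPM in cKO (log2 0.14 ± 0.22 SE, edgeR adjusted p = 0.998). The highest control mean among the 16 types was 83.8 CPM in cluster 15, led by Cartpt and Ntf3. Layer 5 pyramidal tract-like cells held 55.1, 62.2, 52.8 and 62.3 CPM in the 2 control and 2 cKO libraries, unlike Drd in the same cells, where the groups did not overlap. Layer 6 corticothalamic-like cells held 37.7 and 58.4 CPM in controls and 62.7 and 65.2 CPM in cKO. That was 1 of 2 types of 16 in which both cKO libraries were above both controls, against 13.8% of genes, and in 0 were both below, against 12.5%; the fitted log2 values ranged from -1.02 to 0.57 with a median of -0.04.

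**Figure D3:**
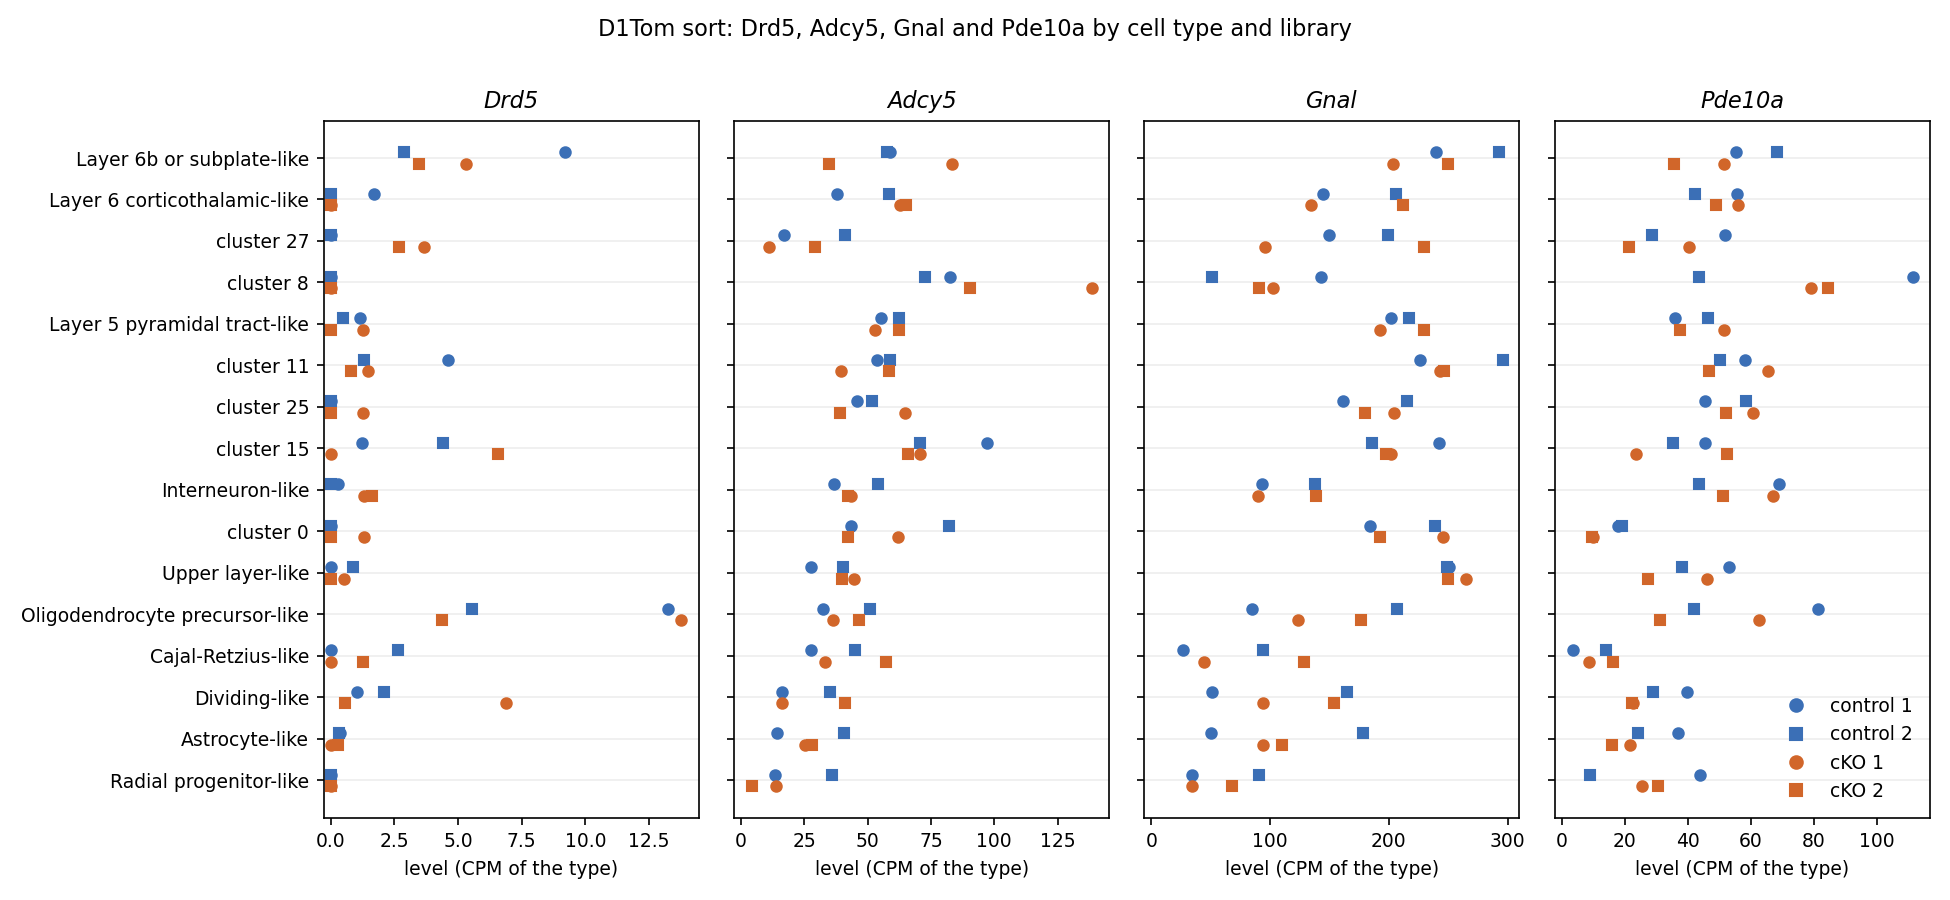
Levels of Drd5, Adcy5, Gnal and Pde10a in CPM of the type (horizontal axes, linear, own scale per panel) in each D1Tom cell type with at least 20 cells in every library; points are libraries, circles number 1 and squares number 2, blue control and orange cKO. Control and cKO points intermix for Gnal in 16 of 16 types, and the Drd5 points of oligodendrocyte precursor-like cells split by library number, at 13.3 and 13.8 CPM against 5.56 and 4.38 CPM.

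Ppp1r1b, the gene of DARPP-32, stood at 39.9 and 19.0 CPM in the D1Tom controls and 14.5 and 8.45 CPM in cKO. The groups did not overlap, but the controls differed from each other by more than cKO 1 differed from control 2. The cKO mean of 11.5 ± 4.31 CPM was 39.0% of the control mean of 29.5 ± 14.8 CPM (SD, n = 2), and the ratios within library number were 0.364 and 0.444. The fitted log2 difference was -1.30 ± 0.37 (SE; edgeR unadjusted p = 0.013, adjusted p = 0.998), and without control 1 it was -0.74. DESeq2 gave an adjusted p = 0.247.

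Layer 6 corticothalamic-like cells were the main source of Ppp1r1b, with 42.8% of the 2137 control counts from 197 cells. They held 429 and 306 CPM in controls against 199 and 120 CPM in cKO, from 763, 152, 89 and 22 counts. The log2 fold change was -1.18 ± 0.27 (SE; edgeR unadjusted p = 2.0e-04, adjusted p = 0.206). The adjusted p was 8.9e-05 in edgeR with the replicate block, which called 22 of 7276 genes in this type. Layer 6b or subplate-like cells came next, at 173 and 133 CPM in controls against 113 and 76.2 CPM in cKO (log2 -0.71 ± 0.26, edgeR unadjusted p = 0.016, adjusted p = 0.999); their control range overlapped neither that of the corticothalamic-like cells above nor that of any type below. Cells of the layer 6 corticothalamic-like type numbered 160, 37, 68 and 26 in control 1, control 2, cKO 1 and cKO 2.

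Layer 5 pyramidal tract-like cells, in which Drd was lower in cKO, held little Ppp1r1b, at 10.2 and 17.2 CPM in controls against 27.0 and 14.5 CPM in cKO (log2 0.60 ± 0.42 SE, edgeR adjusted p = 0.999). Upper layer-like cells held 46.0, 18.6, 34.4 and 18.8 CPM, split by library number. Cluster 27 held 45.2, 12.3, 45.8 and 18.7 CPM. Both cKO libraries were below both controls in 6 of 16 types and above in 0, against 12.5% and 13.8% of genes that passed the filter in a type. The 16 types include some in which Ppp1r1b did not pass it, so these shares are not fully alike. Of the 10 types in which Ppp1r1b passed the filter, 8 had a fitted value below 0 and 2 above. At 1000 counts per cell, Ppp1r1b was found in 25.0% of corticothalamic-like control cells (49 of 196; 19.1% to 31.7%, exact binomial 95% interval) and 6.52% of those in cKO (6 of 92), where cluster 33 held most of the control cells and cluster 31 most of the cKO cells. It was found in 13 of 100 control and 6 of 81 cKO layer 6b or subplate-like cells (7.41%), and in 0 of 160 endothelial-like control cells. Those 160 cells held 7 Ppp1r1b counts before thinning.

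Pde10a, the phosphodiesterase, stood at 49.2 and 36.6 CPM in the D1Tom controls and 40.7 and 26.8 CPM in cKO, so the groups overlapped, although the cKO library was lower within each number, at 0.827 and 0.731 times the control. The fitted log2 difference was -0.29 ± 0.20 (SE; edgeR adjusted p = 0.998). It was not confined to neurons: oligodendrocyte precursor-like cells held 81.2 and 41.9 CPM in controls against 62.5 and 31.1 CPM in cKO, beside 69.1, 43.6, 67.2 and 51.3 CPM in interneuron-like cells. Astrocyte-like cells were among the 4 of 16 types in which both cKO libraries lay below both controls (12.5% of genes), at 37.0, 24.1, 21.5 and 16.0 CPM (log2 -0.74, edgeR unadjusted p = 0.043, adjusted p = 1.00). Fitted values ranged from -0.94 to 0.46.

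**Figure D4:**
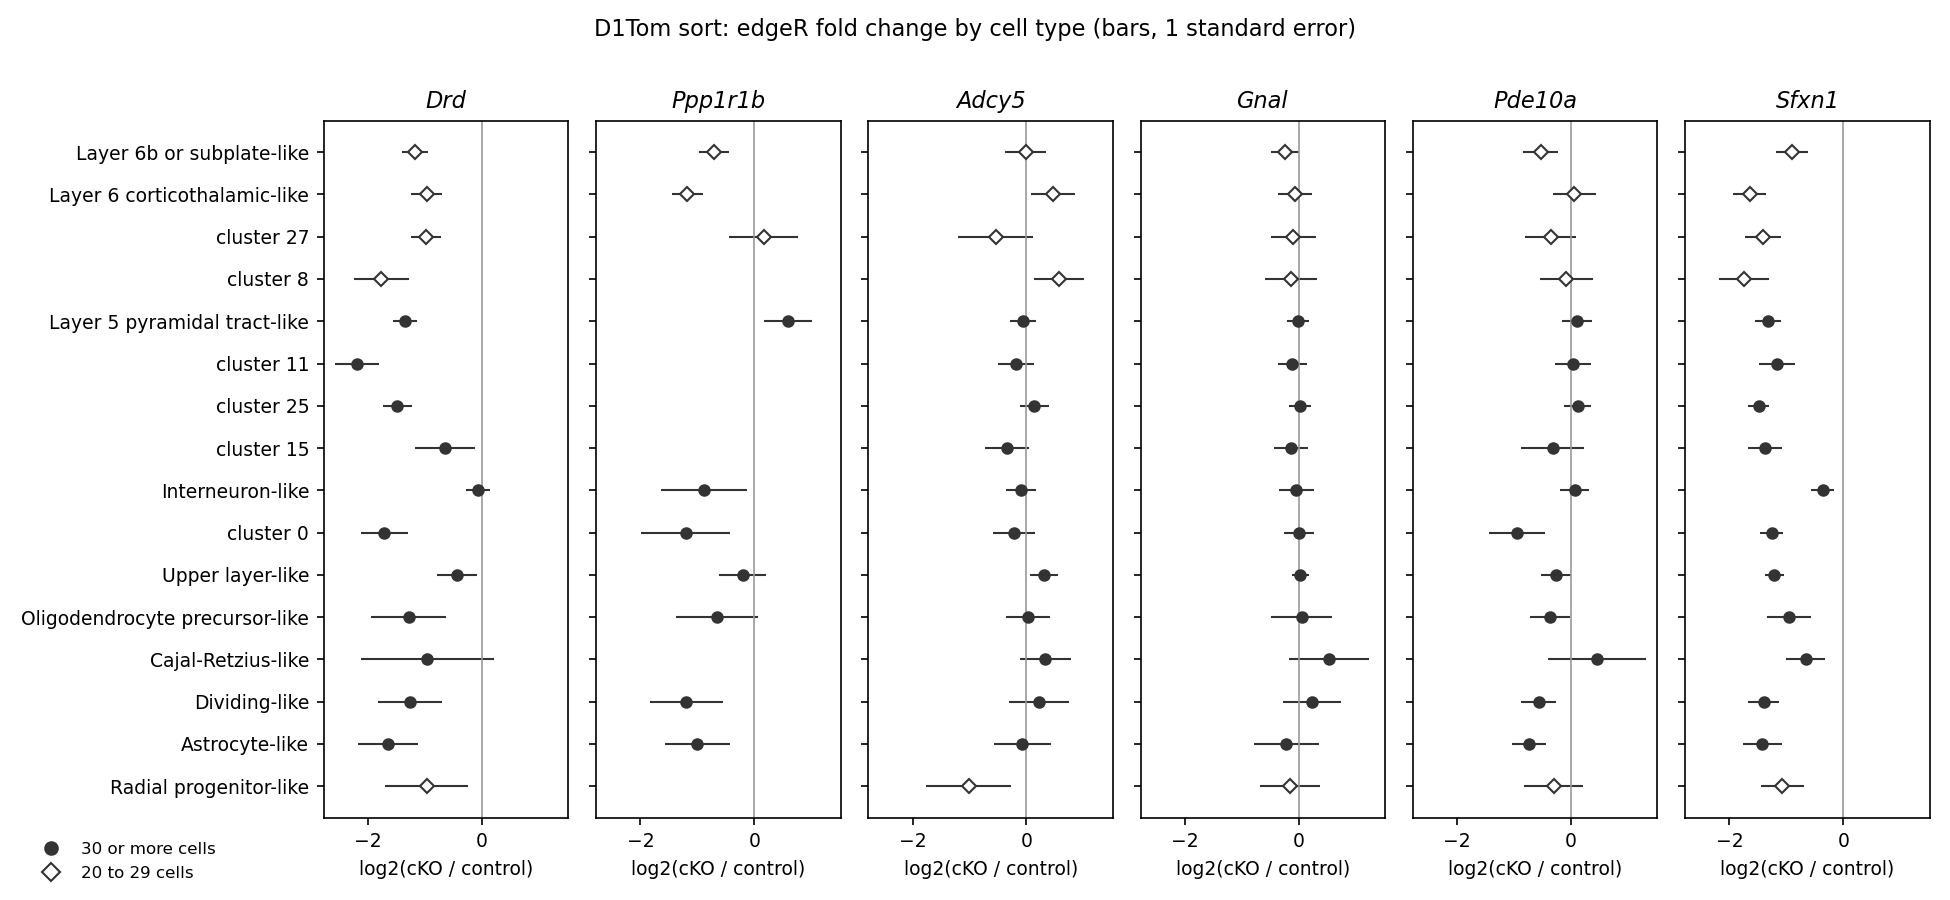
Fitted log2 fold change of cKO against control (horizontal axis) with 1 standard error (bars) for 5 of the genes and the neighbouring gene Sfxn1 in each D1Tom cell type, from edgeR fits on summed counts; filled points are types with at least 30 cells in every library, open points types with 20 to 29, and a missing point did not pass the filter on low counts. Drd lies between -2.20 and -0.07 in the 16 types and Sfxn1 also below 0 in each, while Adcy5 and Gnal lie around 0.

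The GTE sort held far fewer cells of the types rich in Drd. Only 35 GTE cells were layer 6 corticothalamic-like, 0, 27, 7 and 1 in control 1, control 2, cKO 1 and cKO 2, and Drd in them reached 92.1 CPM in control 2 (25 counts) and 50.2 CPM in cKO 1 (4 counts). Over all GTE cells Drd stood at 1.97 and 6.97 CPM in controls against 2.17 and 2.30 CPM in cKO (12, 34, 11 and 13 counts; log2 -1.25 ± 0.76 SE, edgeR adjusted p = 0.984). Ppp1r1b stood at 2.79, 8.81, 1.97 and 4.24 CPM. For both genes control 2 alone was high, and the groups overlapped.

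Gnal and Adcy5 were lower in both GTE cKO libraries than in both GTE controls, which held for 2 of the 7 genes and for 6.67% of all GTE genes tested; 0 of the 7 were higher in both, against 19.6%. Gnal stood at 194 and 286 CPM in controls against 93.5 and 184 CPM in cKO (log2 -1.005 ± 0.64 SE, edgeR adjusted p = 0.984). Adcy5 stood at 40.4 and 59.0 CPM against 23.3 and 40.3 CPM (log2 -0.88 ± 0.53, edgeR adjusted p = 0.978), control 1 and cKO 2 being almost level. With 1 library left out the range was -2.09 (without cKO 2) to -0.36 (without cKO 1) for Gnal and -1.82 to -0.28 for Adcy5 in the same order. The library cKO 1 stood apart, with 1440 cells and a median of 2982 counts against 1085.5 to 1268 in the other libraries. The summed level of 5 excitatory neuron markers was 496 and 651 CPM in GTE controls against 216 and 443 CPM in cKO, with 0 of the 5 at 0 in any library, and its part in the result was not tested. Neither gene passed the test, and 0 of the 6 genes that passed the filter were called, against 0.0332% of 12042 genes, and 0 had an unadjusted p under 0.05, against 5.22%. GTE had 9 types with at least 20 cells in each library. Both cKO libraries were below both controls in 4 of 9 for Gnal and 3 of 9 for Adcy5. Both were above in 0 for Gnal and in 1 for Adcy5. Over genes that passed the filter in those types, the shares were 9.67% below and 16.2% above. The fitted log2 value of Gnal was below 0 in 8 of 8 GTE types in which it was tested, log2 -1.37 to -0.32. That of Adcy5 was below 0 in 6 of 6, log2 -1.80 to -0.35, and 0 were called for either gene. Without cKO 2 the fitted log2 value of Gnal in cluster 2 was -5.11. Cluster 1 had 0.13% of its genes called, oligodendrocyte precursor-like cells 0.0129% and the other GTE types 0%. In GTE astrocyte-like cells, for example, Gnal stood at 216, 211, 59.0 and 156 CPM.

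The cKO effect was compared between sorts in a fit of all 8 libraries. The D1Tom effect minus the GTE effect was -0.11 on the log2 scale for Drd, 0.03 for Drd5, -0.21 for Ppp1r1b, 1.03 for Adcy5, 1.00 for Gnal and -0.62 for Pde10a, with an adjusted p of at least 0.941 in edgeR. With 1 library left out the difference ranged from 0.45 to 1.94 for Adcy5 and 0.39 to 2.07 for Gnal, lowest without GTE cKO 1 and highest without GTE cKO 2. For Pde10a it ranged from -1.26 without GTE control 2 to -0.18 without GTE control 1. None passed the correction, as with 0% of the 14026 genes, 3.22% of which had an unadjusted p under 0.05. In the control libraries Drd was higher in D1Tom than in GTE by 3.27 ± 0.43 in log2 units (edgeR adjusted p = 0.0053; 0.092 with the replicate block), where 3.22% of genes were called; D1Tom cells were sorted on a Drd1 reporter, so this difference is a description. Ppp1r1b differed by 1.74 (adjusted p = 0.114 in edgeR). Adcy5 and Gnal were lower in D1Tom by 1.00 and 1.22 on the same scale, with adjusted p = 0.195 and 0.181 in edgeR.

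Drd and Ppp1r1b were counted together in part of the cells, and in 4 of 4 D1Tom libraries the share of cells with Ppp1r1b was higher among cells with Drd than among the rest; these shares have no test. With cells thinned to 2000 counts, 48 of 494 D1Tom control cells with Drd also had Ppp1r1b (9.72%), against 2.82% of cells without Drd. The shares were 13.6% against 2.91% in control 1, 5.98% against 2.71% in control 2, 3.92% against 1.88% in cKO 1 and 2.00% against 0.691% in cKO 2. Thinned to 1000 counts, the shares in control cells were 8.53% (22 of 258) against 1.89%. Within types the direction was not stable. In layer 6 corticothalamic-like cells at 2000 counts it was 45.3% with Drd against 33.3% without in control 1 and 27.3% against 34.6% in control 2. In layer 6b or subplate-like control cells it was 23.1% (9 of 39) against 27.9% at 2000 counts and 16.7% (4 of 24) against 11.8% at 1000 counts. Drd2 was found in 0 of the 494 cells with Drd, which allows up to 0.607%. It had only 39 counts in all D1Tom control cells before thinning, so this 0 cannot show whether Drd and Drd2 are expressed apart. For the other genes the shares with and without Drd depended on the depth: Gnal was found in 29.8% and 21.8% at 2000 counts and 12.8% and 12.5% at 1000, and Pde10a in 8.70% and 6.68% at 2000 and 3.49% and 4.05% at 1000. Adcy5 was found in 7.49% and 6.86% at 2000 counts and 4.26% and 3.79% at 1000.

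Across 47 clusters of D1Tom control cells, which share 2 libraries and differ in depth, the level of Drd on the log2(CPM + 1) scale followed that of Ppp1r1b with a correlation of 0.63, of Adcy5 with 0.61, of Gnal with 0.59, of Foxp2 with 0.43, of Pde10a with 0.34 and of Sfxn1 with -0.08. The genes most like Drd among 9729 were Glra2 (0.865), Prkce (0.861), Khdrbs3 (0.849), Ndrg3 (0.823) and Camkv (0.818). For Drd, Ppp1r1b stood at rank 525, Adcy5 at 688, Gnal at 750, Foxp2 at 1813 and Pde10a at 2381, so many other genes followed Drd more closely. The correlation of Drd was 0.13 with Drd2, 0.03 with Drd4 and -0.09 with Drd5. Drd stood at rank 12 among the genes most like Ppp1r1b, whose closest genes were Nfe2l3 (0.743), Neurod2 (0.688) and Cbln1 (0.676). The genes most like Adcy5 were Tmem151b (0.896) and Bsn (0.859), those most like Gnal were Trim67 (0.909) and Hivep2 (0.903), and those most like Pde10a were AC132242.1 (0.812) and Tmem132b (0.790). In cKO clusters 3 of these 25 closest genes remained among the closest 5. There the correlation of Drd was 0.49 with Ppp1r1b, 0.56 with Adcy5, 0.39 with Gnal, -0.02 with Foxp2, 0.59 with Pde10a and 0.04 with Sfxn1. Drd stood at rank 520 for Ppp1r1b in those clusters.

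The rest of the pathway was described by 9 lists with 76 further gene names, of which 72 were measured. The lists were G proteins, cyclases, phosphodiesterases, protein kinase A, phosphatases and their regulators, receptor regulators, dopamine handling, transcription responses and the other receptors. The list of other receptors held 2 names, Drd3 and Drd1 (taken here as Drd), and 0 were measured. Of the 13 receptor regulator names 11 were measured, and the 13 name some genes by both an old and a new symbol (Adrbk1 and Grk2, Adrbk2 and Grk3). In D1Tom 0 of 72 passed the corrected test and 3 had an unadjusted p under 0.05 in edgeR. Both cKO libraries were below both controls for 12 and above for 5 of the 72, against 13.7% and 9.7% of all genes, and 2.21% of all genes had an unadjusted p under 0.05. The median log2 fold change was -0.02, against -0.01 over all genes. Gng7, the G protein gamma subunit that partners Gnal in the striatum, stood at 34.3, 32.9, 40.8 and 44.7 CPM (log2 0.42, edgeR unadjusted p = 0.046, adjusted p = 0.998). The immediate early genes Fosb, at 70.9, 2.64, 2.51 and 2.53 CPM, and Junb, at 92.5, 25.6, 20.3 and 14.5 CPM, were high in control 1 alone.

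List medians in D1Tom lay between -0.48 and 0.23. The 10 transcription response genes had a median of -0.48 with 4 below and 1 above. Fosb and Junb, high in control 1 alone, were among those below. The 10 G protein genes had -0.04 with 0 below and 1 above, and the 7 cyclases -0.16 with 2 below. The 7 dopamine handling genes had 0.23 with 2 above, and the 9 phosphodiesterases 0.04 with 2 below and 1 above. The 7 protein kinase A genes had -0.03 and the 11 phosphatase genes 0.02, each with 2 below. The 11 receptor regulators had -0.04 with 0 below and 0 above. Over all genes 13.7% were below and 9.7% above. In GTE 0 of 65 tested genes passed and 2 had an unadjusted p under 0.05 in edgeR: Pde1a, a calcium-dependent phosphodiesterase, at 27.1, 40.2, 11.0 and 22.1 CPM (log2 -1.24, adjusted p = 0.896), and Fos at 35.1, 25.2, 20.7 and 6.90 CPM (log2 -1.70, adjusted p = 0.603). There 8 genes were below and 5 above, against 6.67% and 19.6% of all GTE genes, 5.22% of which had an unadjusted p under 0.05, with a median of -0.39, against -0.05 over all GTE genes.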

How the data were processed

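Single cells were sequenced on 10x Chromium 3′ libraries. The submitters' processing notes name Cell Ranger 2.1.1, UMI-tools 0.5.4, STAR 2.5.2b, featureCounts in Subread 1.6.2 and the builds mm10 and GRCm38.p6, with no role or order. The deposited values are UMI counts per gene and cell, with the genes and counts of each cell; the authors also deposited the mitochondrial and ribosomal fraction of each cell, which was used for no test. Counts were summed per library, or per library and cell type, and tested with edgeR 4.0.16 (quasi-likelihood, TMM, filterByExpr, Benjamini-Hochberg over all genes, adjusted p under 0.05), in each sort alone. DESeq2 1.42.0, another normalization, no filter, a replicate block, each library left out, thinned cells and counts set to 1 were alternatives.

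Cells with at least 500 counts were clustered on 2000 variable genes, 30 principal components and 20 neighbours with Leiden (seed 1; resolution 3 for D1Tom and 1 for GTE, set after seeing the data). A name needed 3 markers at 2-fold, or more. Names are rebuilt and may differ from the study's. Doublets were scored, not removed, and an alternative left out the highest 0.8% per 1000 cells. Types had at least 30 cells in each library; types with 20 to 29 cells, the test of differences from interneuron-like cells, equal type shares, crossed numbers and blocks across sorts were added after seeing the data. D1Tom libraries of 1 number share a batch per the labels, and their deviations from the group means correlated at 0.50 over 14508 genes. In simulated D1Tom data edgeR recovered 27.7% of 2-fold and 95.9% of 4-fold decreases over 14508 genes, and in GTE data 0% and 16.3% over 12042 genes. The simulation gave every gene the same dispersion and drew the libraries independently, unlike the D1Tom libraries of 1 number. These shares are therefore not the power of the test for a given gene. The genes named are the 8, Foxp2, Sfxn1, Emx1, list genes with an unadjusted p under 0.05 and groups apart, and the 5 genes most like each of the 5 members with at least 5 CPM on average. The genes and lists were chosen with earlier results of these data known. Sequences are from RefSeq and exons from GENCODE.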

Additional observations from a re-analysis of the deposited data

How the results depend on the processing

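Drd in all D1Tom cells was below 0 in every alternative run, at -1.45 to -1.29 with 1 library left out, and passed the test in 1, DESeq2 (-1.37). Counts of called genes moved more. For all D1Tom cells (0) DESeq2 called 24, the replicate block 1, and leaving out 1 library 0 to 6. For all GTE cells (4) the counts were DESeq2 2, no filter 18, replicate block 0, without the highest doublet scores 10, thinned cells 0, counts set to 1 1, and 1 to 27 with 1 library left out. In D1Tom the replicate block changed no call on the 8 genes beyond those given beside the results. GTE numbers correlated at -0.35, and crossed pairing called 24. For D1Tom against GTE controls (452) thinned cells gave 137, the replicate block 0 and leaving out 1 library 52 to 1150. For D1Tom types (5) DESeq2 gave 18, no filter 119, the replicate block 207 and leaving out 1 library 64 to 791; for the types of 20 to 29 cells (28), DESeq2 8 and the replicate block 205. For GTE types (13) DESeq2 gave 2, no filter 52, the replicate block 1 and leaving out 1 library 15 to 1555; GTE types of 20 to 29 cells gave 0. Where a fit left a group with 1 library, that library was assumed to vary like the others. The mean share of D1Tom control cells with Drd, 4.70% at 1000 counts, was 2.51% at 500 and 9.22% at 2000. Signs turned for Gnal in D1Tom (DESeq2 -0.000889, DESeq2 size factors -0.00217, neurons -0.17, equal shares -0.017, 1 library left out -0.27 to 0.33). The Sfxn1 sign turned with counts set to 1 (0.034), a setting that discards the size of the counts of an abundant gene. With 1 library left out the ranges crossed 0 for Drd5 (-0.19 to 0.65) and Adcy5 (-0.12 to 0.46) in D1Tom, Drd5 (-0.34 to 0.66) and Pde10a (-0.16 to 1.02) in GTE, the difference between sorts of the effects on Drd (-0.94 to 0.40), Drd5 (-0.46 to 0.67) and Ppp1r1b (-0.93 to 0.89), Pde10a between sorts in controls (-0.15 to 0.92), and Drd in Cajal-Retzius-like (-7.44 to 0.19), interneuron-like (-0.18 to 0.035) and upper layer-like (-0.84 to 0.13) cells. Of the 25 genes most like a member, 3 were so in cKO. The cause of these changes was not tested. GTE neurons alone were not run, since GTE control 1 held 0 cells named for a neuron type.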
